A study of Danio rerio with 39 samples.

Results

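Canonical Wnt signalling was followed through 10 zebrafish genes chosen by symbol: the ligand wnt8a, the receptors fzd2, fzd7a and lrp6, the secreted inhibitor dkk1b, the destruction complex genes apc and axin2, the effector ctnnb1, the nuclear factor tcf7l1a and the target sp5l. The rule named symbols and set no threshold on a measured value, but earlier results of these data were known when they were chosen. The 10 symbols matched 12 of the 32057 genes counted, because wnt8a and fzd7a each matched 2. For fzd7a both genes carry the name FZD7 without the letter of the copy, so that the symbol alone does not tell which is fzd7a. The gene listed as TCF7L1 (ENSDARG00000038159) was taken as tcf7l1a, since tcf7l1b is listed apart from it.

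A canonical Wnt protein binds a Frizzled receptor together with its co-receptor Lrp5 or Lrp6, which stops a complex of Apc, Axin and kinases from marking β-catenin for destruction. The β-catenin that accumulates enters the nucleus, binds Tcf and Lef factors and switches on targets, among them axin2, whose product feeds back on the pathway. In the early zebrafish embryo, maternal β-catenin first sets up the dorsal organizer. Wnt8a made at the margin then acts on ventrolateral mesoderm and posteriorises the neural ectoderm, while Dkk1b secreted at the dorsal side protects the future head.

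RNA was sequenced from whole zebrafish embryos of the AB genetic background, pooled for each library, that had been kept under a continuous gamma source from early cleavage to the shield stage, the start of gastrulation. The exposed groups received 0.005 mGy/h (3 libraries, irradiation batch I14), 0.05 mGy/h (4, I13), 0.5 mGy/h (6, I32) and 5 mGy/h (6, I30), and each batch had its own non-irradiated AB controls (4, 4, 6 and 6), which makes 39 libraries. Each dose rate was thus set against other embryos than the next, and dose rate and batch cannot be told apart. All embryos shared the incubator medium and stage, a library mixes every cell type of an embryo with its yolk cell, and the highest dose rate of the study was not analysed here.

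Levels are given as CPM, read counts scaled to library size and normalised by TMM over the 39 libraries, and as log2 fold changes of exposed over control embryos of the same batch with their SE. A gene was called changed with an adjusted p under 0.05 in edgeR's quasi-likelihood test with Benjamini-Hochberg adjustment over all genes tested, and a differentially expressed gene (DEG) also needed an adjusted p under 0.01 and a fold change of at least 1.5. Between 9845688 and 57169053 read pairs per library fell on genes. The labelled stage was checked with 13 germ layer markers. All of them had counts in every group, with tbxta between 493 and 949 CPM and chrd between 255 and 1212 CPM. The lowest of them, gsc, had a median of 2.17 CPM and ranged from 0 to 3.57 CPM, so that it was not seen in every library. The genes of later organs gata1a and myl7 did not pass 0.39 and 0.064 CPM. The highest of the later genes were ins, neurog1 and myod1, with at most 1.29, 1.23 and 0.63 CPM. Since whole embryos were sequenced, fewer cells of a type and less RNA per cell cannot be told apart.

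Members of the pathway differed from their controls at 5 mGy/h, where 4 of 9 tested genes were higher in exposed embryos and none was called lower. These were the receptor genes fzd2 and FZD7 (ENSDARG00000027589), the co-receptor lrp6 and the transcription factor gene tcf7l1a, by 1.51-fold, 1.28-fold, 1.30-fold and 1.40-fold. At this dose rate 9.1% of 15015 genes were called in either direction, 4.57% higher and 4.53% lower. One member, fzd2, was a DEG, against 0.533% of genes that were DEG and 0.353% that were DEG and higher. An unadjusted p under 0.05 was found for 5 of 9 members, the fifth being dkk1b, and for 27.8% of genes. The median log2 fold change of the 9 members was 0.13, beside -0.05 over all genes tested.

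For the 3 lower dose rates the main edgeR fits called 0 of 9 members. For 0.5 mGy/h 7.51% of 14906 genes were called (5.79% higher, 1.72% lower, 0.416% as DEG), whereas among the members DESeq2 called 0 and only apc and axin2 had an unadjusted p under 0.05, as did 25.4% of all genes. The exposed and control libraries of that batch overlapped for every member, and did not for 3.94% of genes. For 0.05 mGy/h 0.00632% of 15814 genes were called, and among the members DESeq2 called 0 and the unadjusted p was under 0.05 in 0, against 1.37% of genes. The largest log2 change of a member was 0.09 in that comparison, and 0 members were without overlap, against 1.22% of genes.

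With 0.005 mGy/h, where edgeR called 0% of 13935 genes, lrp6 and apc had an unadjusted p under 0.05, as did 10.5% of genes. DESeq2 called lrp6 there, beside 0.588% of the 23145 genes in its fit. From the lowest to the third dose rate the 9 members had median log2 fold changes of 0.16, -0.05 and 0.09, where the medians of all genes were -0.01, 0.00 and -0.01.

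**Figure D1:**
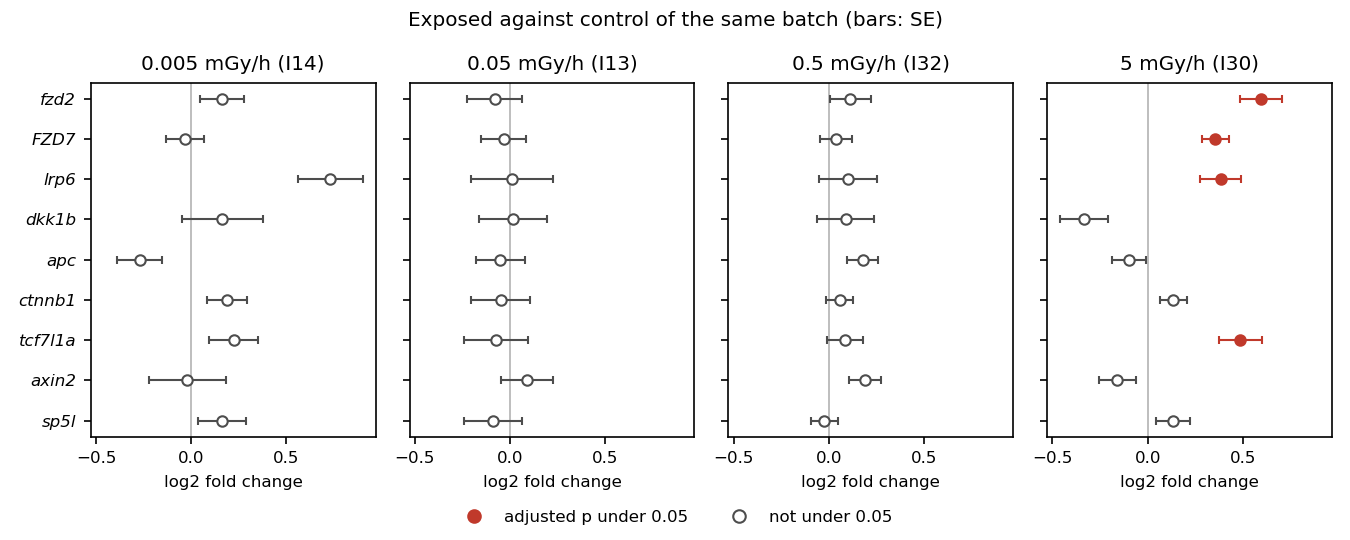
Log2 fold change of exposed over control embryos (x axis) for the 9 tested members (y axis), with 1 panel for each dose rate and its irradiation batch. Points are estimates of edgeR's quasi-likelihood fit with their SE as bars, and filled red points have an adjusted p under 0.05. Only the panel of 5 mGy/h has such points, for fzd2 (0.59), FZD7 (0.35), lrp6 (0.38) and tcf7l1a (0.49).

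The ligand wnt8a could not be followed. Both genes that carry this symbol had 0 counts in each of the 39 libraries, on either strand. In a RefSeq table of a later zebrafish assembly, wnt8a and its tandem copy wnt8-2 share their start and end, and a read pair that lies on 2 overlapping genes is counted for neither by the counting of STAR. Whether this accounts for the 0 counts was not tested. They are not read as absence of wnt8a RNA, and no level or comparison is given for it.

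The Frizzled gene fzd2 codes for a receptor with a Wnt-binding cysteine-rich domain. In batch I30 its control libraries lay between 13.7 and 19.7 CPM with a median of 16.9, and the libraries of 5 mGy/h between 21.4 and 30.2 CPM with a median of 26.2. Every exposed library was above every control library. In either direction, 3.33% of the genes tested did not overlap. The log2 fold change was 0.59 (SE 0.11, n = 6 and 6, adjusted p = 0.00711, edgeR's quasi-likelihood test). It was called in 12 of 12 fits that left out 1 library, with an adjusted p of at most 0.0272 and log2 fold changes of 0.54 to 0.64. It stayed a DEG in only 3 of them, those without exposed replicate 2, exposed replicate 6 or control replicate 2. Over all genes these 3 fits held 187, 114 and 250 DEG, and the other fits without 1 library 12 to 48.

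The lower dose rates left fzd2 with overlapping groups. In batch I32 it ranged from 17.8 to 24.2 CPM (median 22.1) in exposed and from 18.1 to 24.1 CPM (median 19.0) in control embryos. The libraries of 0.05 mGy/h had 20.2, 23.2, 22.8 and 22.9 CPM and the controls 21.9, 18.2, 28.1 and 26.0 CPM. Those of 0.005 mGy/h had 39.3, 42.8 and 33.3 CPM and the controls 34.7, 35.0, 33.2 and 32.6 CPM. The exposed replicates 2 and 3 stood above all controls there, and the remaining exposed library fell among them. The log2 fold changes were 0.11 (SE 0.11), -0.08 (SE 0.14) and 0.16 (SE 0.12), in the same order of dose rates.

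Of the 2 genes named FZD7, ENSDARG00000027589 was abundantly counted and ENSDARG00000060004 was nearly silent, with 24 counts in all over 14 of the 39 libraries and at most 4 in one of them, so that it did not pass the filter on low counts. FZD7 products are Frizzled receptors of the early embryo that serve canonical signalling as well as cell movements. In batch I30 the first of them had 382 to 434 CPM in controls (median 400.1) and 487 to 591 CPM at 5 mGy/h (median 517), without overlap. Its log2 fold change was 0.35 (SE 0.07, adjusted p = 0.0108, edgeR), and it was called in all 12 fits without 1 library.

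The same FZD7 gene spanned at 0.5 mGy/h 418 to 523 CPM in exposed and 418 to 537 CPM in control embryos, an almost complete overlap (log2 fold change 0.04, SE 0.08). In batch I13 it had 470.1, 540.2, 557 and 540.4 CPM in exposed and 528, 466, 619 and 542 CPM in control libraries. In batch I14 it had 636, 596 and 651 CPM in exposed and 649, 633, 618 and 638 CPM in control libraries. Neither pair of groups was apart, with log2 fold changes of -0.03 (SE 0.12) and -0.03 (SE 0.10).

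The co-receptor gene lrp6 had 52.9 to 63.9 CPM in the controls of batch I30 (median 58.7) and 60.5 to 101 CPM at 5 mGy/h (median 75.6). One exposed library, replicate 2, fell among the controls. The log2 fold change was 0.38 (SE 0.11, adjusted p = 0.0361, edgeR). The call depended on the libraries and the fit. It was made in 4 of 12 fits that left out 1 library. These were the fits without exposed replicate 2 or 6, or without control replicate 2 or 4. They called 14.7%, 11.9%, 15.9% and 10.9% of all genes, and the other fits without 1 library called 1.95% to 5.34%. The log2 fold change of lrp6 lay between 0.29 and 0.44 over the 12 fits. Its adjusted p in edgeR was 0.0611 with all libraries thinned to the lowest total. In a joint fit of the 39 libraries it was 0.109, and in a fit blocked by replicate number 0.0581.

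For lrp6, 0.005 mGy/h showed a larger difference than at 5 mGy/h, in fewer libraries. The exposed libraries had 364, 529 and 283 CPM and the controls 230, 251, 239.9 and 209 CPM. All 3 exposed libraries were above all 4 controls, as was the case, in either direction, for 10.7% of the genes tested, and they spread over a wider range than the controls. The log2 fold change was 0.73 (SE 0.17, n = 3 and 4), with an adjusted p of 0.224 in the main edgeR fit and 0.0253 in DESeq2, and from 0.46 to 0.90 when 1 library was left out. Under 0.05 mGy/h lrp6 was 149, 162, 179 and 154 CPM in exposed and 100.5, 119, 229 and 190 CPM in control libraries, where the controls spread on both sides of the exposed libraries. Its range at 0.5 mGy/h was 65.3 to 111 CPM in exposed and 65.6 to 132 CPM in control embryos, with medians of 98.1 and 78.9 CPM and overlapping groups.

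**Figure D2:**
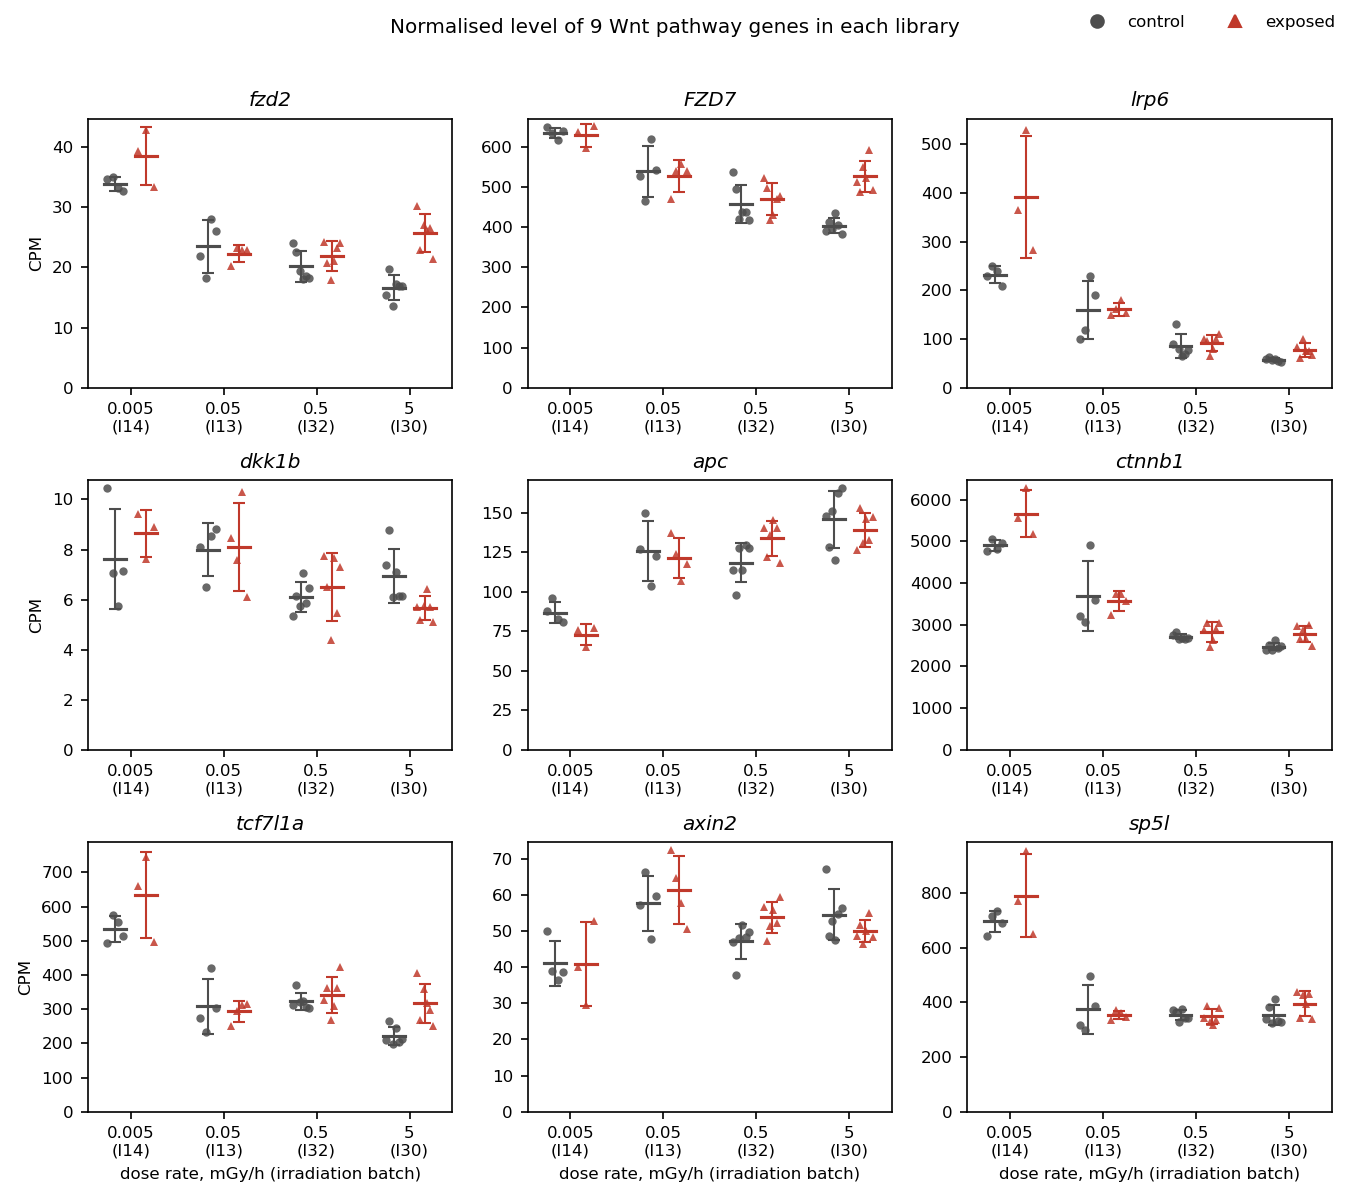
Level of the 9 tested members in each of the 39 libraries, as TMM-normalised CPM (y axis, from 0) by dose rate and irradiation batch (x axis). Grey circles are control and red triangles exposed libraries, and lines and bars are the mean and SD of a group. For fzd2 and FZD7 the triangles of 5 mGy/h lie above all circles of batch I30, while levels of the batches differ by more than that for lrp6, from a control mean of 58.1 CPM in I30 to 232 CPM in I14.

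The inhibitor gene dkk1b, whose product binds Lrp6 and keeps Wnt from using it, was counted at a low level. At 5 mGy/h it had 5.09 to 6.43 CPM (median 5.72) beside 6.09 to 8.78 CPM (median 6.62) in controls. The groups overlapped, with control replicates 1 and 2 the highest. The log2 fold change of -0.34 (SE 0.12) had an adjusted p of 0.0899 in edgeR and was not called. Over the remaining dose rates its log2 fold change lay between 0.02 and 0.16, with an SE of 0.15 to 0.21.

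Among the genes of the destruction complex, apc codes for the scaffold that holds β-catenin for phosphorylation, and axin2 for an inducible Axin that is itself a widely used readout of canonical signalling. At 5 mGy/h apc had 126 to 153 CPM in exposed and 120.2 to 165 CPM in control embryos, so that the exposed libraries lay inside the range of the controls (log2 fold change -0.10, SE 0.09, adjusted p = 0.505). In batch I32 it had 118 to 145 CPM (median 138) beside 98.03 to 129.6 CPM (median 121) in controls, with a log2 fold change of 0.18 (SE 0.08, adjusted p = 0.179). In batch I14 it had 76.1, 65.1 and 77.1 CPM in exposed and 88.1, 95.8, 82.5 and 80.8 CPM in control embryos. At 0.005 mGy/h all 3 exposed libraries thus were below all controls, with a log2 fold change of -0.27 (SE 0.12) that was not called (adjusted p = 0.461). In either direction, 10.7% of the genes tested there did not overlap.

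The target gene axin2 had 46.4 to 55.0 CPM (median 49.3) at 5 mGy/h and 47.5 to 67.1 CPM (median 53.7) in controls, and the groups overlapped, with control replicate 1 as the highest library. Its log2 fold change was -0.16 (SE 0.10, adjusted p = 0.294). At 0.5 mGy/h it had 47.1 to 59.3 CPM (median 53.9) beside 37.9 to 51.7 CPM (median 48.1), with a log2 fold change of 0.19 (SE 0.09, adjusted p = 0.170) and control replicate 2 as the lowest library. At 0.05 mGy/h the log2 fold change was 0.09 (SE 0.14), and at 0.005 mGy/h it was -0.02 (SE 0.20), where the exposed libraries of 39.9, 29.6 and 52.8 CPM lay on both sides of the controls at 50.1, 38.95, 36.3 and 38.6 CPM.

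The second target, sp5l, codes for a zinc finger factor of the Sp family through which Wnt acts on mesoderm and neural ectoderm of the zebrafish gastrula. It had 337 to 437 CPM (median 412) at 5 mGy/h and 325 to 411 CPM (median 335) in controls. The groups overlapped, with exposed replicates 2 and 6 as the lowest exposed libraries and control replicate 4 as the highest control, and the log2 fold change of 0.13 (SE 0.09) was not called (adjusted p = 0.336). At 0.5 mGy/h the medians were 339.8 and 354 CPM with complete overlap (log2 fold change -0.02, SE 0.07). In batches I13 and I14 its log2 fold changes were -0.09 (SE 0.15) and 0.16 (SE 0.13).

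The β-catenin gene among the members, ctnnb1, whose product also holds cells together at cadherin junctions, had 2502 to 2988 CPM (median 2771) at 5 mGy/h and 2399 to 2628 CPM (median 2466) in controls. Exposed replicate 6 fell among the controls, and the log2 fold change was 0.13 (SE 0.07, adjusted p = 0.233). At 0.005 mGy/h it had 5561, 6272 and 5172 CPM in exposed and 4760, 5060, 4826 and 4971 CPM in control embryos, again with all exposed above all controls and without a call (log2 fold change 0.19, SE 0.10, adjusted p = 0.5681). In either direction, 10.7% of the genes tested there did not overlap. Canonical signalling acts on the β-catenin protein, which these libraries do not measure.

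The transcription factor gene tcf7l1a, known in zebrafish as headless and needed as a repressor of Wnt targets in the future head, had 198 to 266 CPM in the controls of batch I30 (median 211) and 252 to 407 CPM at 5 mGy/h (median 308). Exposed replicate 6 fell below control replicate 2, and every other exposed library was above every control. The log2 fold change was 0.49 (SE 0.11, adjusted p = 0.0185, edgeR). The call was lost only when exposed replicate 3 or control replicate 3 was left out (adjusted p of 0.0543 and 0.0537), and without either of these the count of members called fell to 2, fzd2 and FZD7. The share of all genes called fell to 1.97% and 1.95% in these fits, from 9.1% with all libraries. At 0.5 mGy/h tcf7l1a had 269 to 423 CPM (median 344) beside 302 to 369.7 CPM (median 318), at 0.05 mGy/h its log2 fold change was -0.07 (SE 0.17), and at 0.005 mGy/h it was 0.22 (SE 0.13) with 497 to 745 CPM in exposed and 494 to 576 CPM in control embryos.

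Since an effect called at one dose rate only is not thereby different from the others, the exposure effects were compared in a joint fit of the 39 libraries with batch and exposure within batch. The effect differed over the 4 dose rates in 1 of 9 members, fzd2 (edgeR's quasi-likelihood F test, adjusted p = 0.0449), beside 2.21% of 17255 genes. That call was made in 17 of 39 fits without 1 library, with adjusted p from 0.0160 to 0.0881. The effect at 5 mGy/h was larger than that at 0.5 mGy/h for fzd2, by 0.51 on the log2 scale (SE 0.15, adjusted p = 0.0235), and for FZD7, by 0.35 (SE 0.10, adjusted p = 0.0258), beside 13.2% of genes that differed in either direction. For fzd2 the call of this difference was lost only without I32 control replicate 2 (difference 0.48, adjusted p = 0.0539). For FZD7 it was lost without I30 exposed replicate 3, I30 control replicate 1, I32 exposed replicate 4, I32 control replicate 1 or I32 control replicate 2, with an adjusted p of at most 0.0597. Without I32 control replicate 2, then, 0 of 9 members passed. The difference was 0.43 for tcf7l1a (SE 0.17, adjusted p = 0.0818) and 0.31 for lrp6 (SE 0.23, adjusted p = 0.385), and neither was called, nor was that of axin2 at -0.31 (SE 0.15, adjusted p = 0.164).

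The unexposed level of the pathway varied between batches. Over the 20 control libraries, 9 of 9 members differed between the 4 batches (edgeR's quasi-likelihood F test, adjusted p under 0.05), beside 77.4% of 16249 genes. The co-receptor lrp6 spanned the widest range, with a mean of 232 ± 17.7 CPM (SD, n = 4) in I14, 159.8 ± 60.3 CPM (n = 4) in I13, 85.9 ± 24.0 CPM (n = 6) in I32 and 58.1 ± 3.88 CPM (n = 6) in I30, which is 4-fold from the highest to the lowest. The range was 2.41-fold for tcf7l1a, 2.03-fold for fzd2, 1.98-fold for ctnnb1, 1.97-fold for sp5l, 1.68-fold for apc, 1.57-fold for FZD7, 1.41-fold for axin2 and 1.31-fold for dkk1b. It exceeded the change at 5 mGy/h in 9 of 9 members. A range over 4 means tends to be wider than 1 difference between groups, and the share of all genes for which it was wider was not computed.

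In the controls, 6 of 9 members were highest in I14 and lowest in I30, namely fzd2, FZD7, lrp6, ctnnb1, tcf7l1a and sp5l. For sp5l the means of I30 (353.4 CPM) and I32 (354.1 CPM) were nearly level. The shares of all genes with this order, or with exposed means within the control range, were not computed. The order was turned for apc, which was highest in I30 (146 ± 18.1 CPM) and lowest in I14 (86.8 ± 6.75 CPM), and axin2 was also lowest in I14. All 4 genes called at 5 mGy/h were thus among those lowest in the controls of that batch. Their exposed means lay within the range of the 4 control means, with fzd2 at 25.6 CPM between 16.6 and 33.9 CPM and tcf7l1a at 317 CPM between 222 and 535 CPM. The same I30 controls enter the calls, the order and the range, so that these are not separate results. A gene lowest in I30 with a rise smaller than its range must lie within it. A mean outside the range of the control means was found for dkk1b alone, at 5.65 CPM beside control means from 6.11 to 7.99 CPM.

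**Figure D3:**
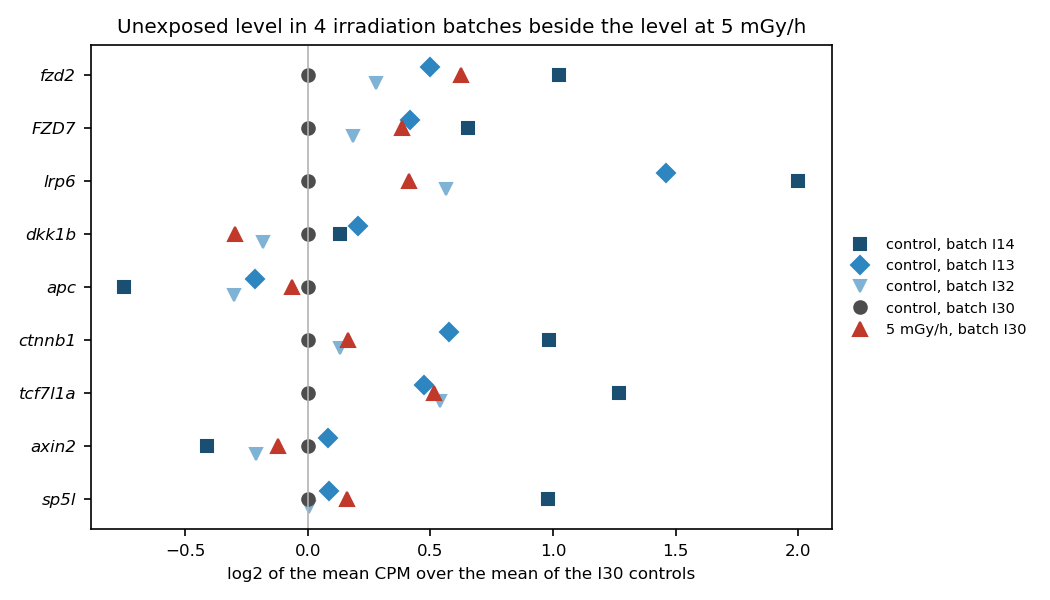
Mean CPM of the control libraries of the 4 irradiation batches and of the exposed libraries of 5 mGy/h (red triangles), as the log2 ratio to the mean of the I30 controls (x axis), for the 9 tested members (y axis). Symbols of I13 and I32 are set slightly above and below the line of a gene to keep them apart. For 8 of 9 members the red triangle lies between the outermost control means, and dkk1b is the exception.

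Within the groups, some members varied together from library to library and others against them. After the mean of each group was subtracted, the correlation of log2 CPM over the 39 libraries was 0.87 between sp5l and ctnnb1, 0.85 between sp5l and tcf7l1a and 0.82 between tcf7l1a and fzd2, while apc ran against them, at -0.78 with sp5l and -0.73 with tcf7l1a. The target axin2 ran with apc (0.58) and also against the others, at -0.57 with sp5l, -0.59 with tcf7l1a, -0.51 with lrp6 and -0.49 with ctnnb1. For dkk1b the correlations with the other tested members lay between -0.23 and 0.33. These are descriptions without a test, over points that share library, depth and the composition of the pool. Among all genes of the joint fit, the patterns most like that of axin2, after subtraction of the batch mean, were those of CSAD (r = 0.91), si:ch73-311h14.2 (r = 0.91) and FBH1 (r = 0.88). For sp5l they were PABPN1 (r = 0.92), ATP6V0C (r = 0.92) and AKIRIN2 (r = 0.91).

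The rest of the pathway was looked at in 6 lists of Wnt genes that held 108 matched genes besides the members. Of 64 that were tested at 5 mGy/h, 11 were higher and 2 lower, with a median log2 fold change of 0.15, beside 4.57% higher, 4.53% lower and a median of -0.05 over all genes tested. These shares also stand beside the counts of the single lists. At 0.5 mGy/h, where 7.51% of all genes were called, 1 of 64 was, frzb, which codes for a secreted Frizzled-related protein that binds Wnt and was higher by 0.44 (SE 0.11, adjusted p = 0.0207, edgeR). In batches I13 and I14 edgeR called 0 of 66 and 0 of 64, and the median log2 fold change was -0.05 and -0.02.

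Of 23 genes for ligands and secreted agonists, 20 did not pass the filter on low counts at 5 mGy/h, among them most Wnt genes of later development. The ligand gene wnt3a was at most 1.39 CPM in batch I30. Expression of wls, the carrier that brings Wnt proteins to the cell surface, was higher, with 225 to 282 CPM beside 193 to 237 CPM in controls (log2 fold change 0.31, SE 0.08, adjusted p = 0.0261, edgeR). The agonist rspo3 had 16.2 to 21.5 CPM beside 15.3 to 21.4 CPM.

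Of 12 receptor genes, 3 were higher. Both genes named FZD8 rose, the first (ENSDARG00000038569) to 20.7 to 29.8 CPM beside 16.9 to 19.5 CPM in controls (log2 fold change 0.43, SE 0.10, adjusted p = 0.0202), without overlap, and the second (ENSDARG00000045444) with a log2 fold change of 0.40 (SE 0.10, adjusted p = 0.0261). The R-spondin receptor gene lgr4 had 4.72 to 6.33 CPM beside 3.22 to 4.22 CPM in controls, again without overlap (log2 fold change 0.54, SE 0.13, adjusted p = 0.0230). The co-receptor lrp5 and the Lrp chaperone mesd did not overlap between the groups either, but were not called, with log2 fold changes of 0.22 (adjusted p = 0.0991) and 0.20 (adjusted p = 0.138). Both were picked after their values were seen. Of all genes tested at this dose rate, 3.33% did not overlap. For all 3 calls the test was that of edgeR.

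Among 5 secreted inhibitors, SFRP1 (ENSDARG00000035521), a Frizzled-related protein that binds Wnt, was higher, with 61.4 to 73.5 CPM beside 36.3 to 50.7 CPM in controls (log2 fold change 0.62, SE 0.10, adjusted p = 0.00359, edgeR). Among 16 cytoplasmic genes only GSK3A (ENSDARG00000015681), which codes for a kinase of the destruction complex, was called, with a log2 fold change of 0.29 (SE 0.09, adjusted p = 0.0480). The scaffold gene axin1 had 78.3 to 105 CPM beside 87.8 to 118 CPM and the transducer dvl2 125 to 185 CPM beside 165 to 207 CPM, both overlapping and not called.

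The 15 nuclear genes held 3 that rose and 1 that fell. The Tcf and Lef family members tcf7 (8.53 to 12.4 CPM beside 5.17 to 8.28 CPM in controls) and lef1 (80.8 to 98.4 CPM beside 67.7 to 76.2 CPM) were apart from their controls, as were 3.33% of all genes tested. Their log2 fold changes were 0.62 (SE 0.14, adjusted p = 0.0165) and 0.29 (SE 0.07, adjusted p = 0.0230). TLE3 (ENSDARG00000002787), a co-repressor of the Groucho family, rose by 0.29 (SE 0.09, adjusted p = 0.0462). Expression of ctnnbip1, whose product keeps β-catenin from Tcf factors, fell by 0.47 on the log2 scale (SE 0.14, adjusted p = 0.0478), with 127 to 199 CPM beside 141 to 248 CPM. The second tcf7l1 copy, tcf7l1b, had a log2 fold change of 0.02 (SE 0.09, adjusted p = 0.897).

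Among 13 genes that respond to Wnt in the gastrula, the posterior homeobox gene cdx1a rose, with 29.2 to 42.3 CPM beside 15.7 to 24.9 CPM in controls (log2 fold change 0.90, SE 0.12, adjusted p = 0.00176, edgeR). The mesodermal T-box gene tbx6 also rose, with 5.53 to 9.41 CPM beside 3.19 to 4.56 CPM (log2 fold change 0.95, SE 0.16, adjusted p = 0.00507). The ventral repressor gene vent was lower, with 31.04 to 75.9 CPM beside 50.9 to 105 CPM (log2 fold change -0.82, SE 0.20, adjusted p = 0.0239). Its relatives vox and ved, the caudal gene cdx4, the inhibitor nkd1 and the mesodermal gene tbx16 were not called. Of the 13 targets, 2 were thus called higher, 1 lower and 10 not called, and a difference between targets was not tested.

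**Figure D4:**
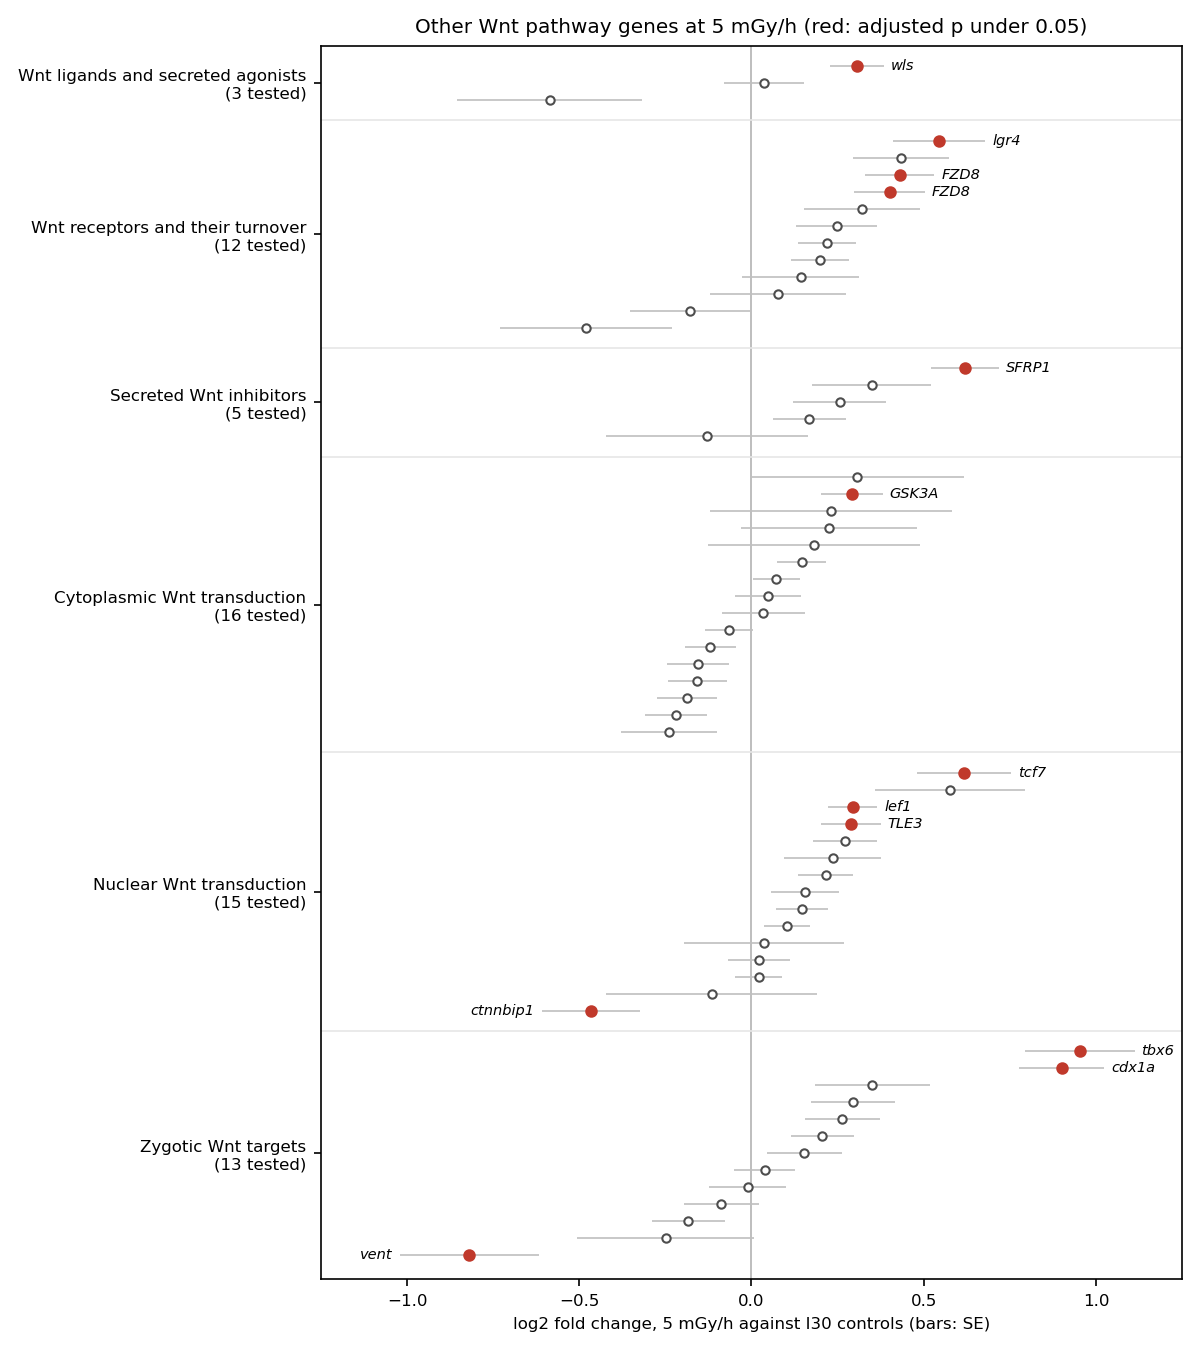
Log2 fold change at 5 mGy/h over the I30 controls (x axis) for the 64 tested genes of 6 Wnt lists (y axis, 1 gene per line, ordered within each list), with the SE as bars. Red points have an adjusted p under 0.05 and are named. 11 of them lie above 0 and 2 below it (ctnnbip1 and vent), with tbx6 (0.95) and cdx1a (0.90) farthest to the right.

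Some other measures moved with the exposed group at 5 mGy/h. Of 11 markers of the enveloping layer, the outer epithelium of the embryo, 7 were called higher and none lower, and none was at 0. Over all genes tested 4.57% were called higher and 4.53% lower, and these shares also stand beside the lists that follow. Their summed level was 5931 to 9005 CPM in exposed and 4623 to 6536 CPM in control libraries. It was 13820 to 16680 CPM in the controls of I14, 6863 to 11490 CPM in those of I13 and 6879 to 8953 CPM in those of I32. The batches with the highest and the lowest sums were also those with the highest and lowest lrp6 and fzd2. This order was not particular to the enveloping layer. Control medians of the germ layer sum (3539 CPM in I14, 2057 CPM in I30) and the yolk syncytial sum (950 and 556 CPM) had the same ends. The germ plasm sum was turned (346 and 420 CPM), and the maternal oocyte sum was lowest in I13 (1477 CPM). The summed level of 8 germ plasm markers was 337 to 383 CPM in exposed and 396 to 432 CPM in control libraries of I30, with 2 called lower. Of 10 maternal oocyte markers tested 0 were called, with summed levels of 1425 to 1963 CPM in exposed and 1167 to 1735 CPM in control libraries. Of 13 germ layer markers, OTX2 (ENSDARG00000011235), chrd and GATA2 (ENSDARG00000059327) were higher, by 1.01, 0.56 and 0.36 on the log2 scale, and mixl1 fell by 0.69. Their summed levels were 1994 to 2427 CPM in exposed and 1905 to 2340 CPM in control libraries, and no marker was at 0 throughout a group. Of 8 yolk syncytial layer markers, 7 of them tested and none at 0, apoa1b was higher by 0.66 and slc26a1 fell by 0.43, with summed levels of 548 to 760.4 CPM and 536 to 665 CPM. The part of these cell populations in the Wnt results was not tested.

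Exposed libraries of 5 mGy/h were also deeper (20896629 to 45879001 counts) than their controls (9845688 to 25507778). With all libraries thinned to the lowest total, fzd2, FZD7 and tcf7l1a were called again, with log2 fold changes of 0.66, 0.33 and 0.50, and the call of lrp6 was lost. The thinned fit called 7.26% of all genes. The study had left out 8 of the 39 libraries by their place in a clustering of expression, 4 of them in batch I30. Over its 31 libraries the count of members called at 5 mGy/h was again 4, and 2 were DEG. Of 14529 genes tested there, 25.4% were called and 1158 were DEG. Over all libraries of the batch 9.1% of 15015 genes were called and 80 were DEG.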

How the data were processed

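Poly(A) RNA of pooled zebrafish embryos was sequenced as stranded, paired reads. The deposited values are raw counts of read pairs per Ensembl gene that the authors obtained by removing adapters with TrimGalore and mapping with STAR to GRCz11 with Ensembl junctions; they were not normalised. The strand opposite to the first read was used here, since the other strand took at most 2.09% of counts. All libraries of a batch entered a two-sided quasi-likelihood test of edgeR 4.0.16 under R 4.3.3, with TMM factors. Genes were kept by filterByExpr. It asked for about 10 counts in a number of libraries near the size of the smaller group, and for 15 in total. DESeq2 1.42.0 was an alternative. On simulated counts the fits recovered the largest of the changes put in. All changes put in were larger than those of the members, so that recovery of changes of the members' size was not tested. Figures were drawn with matplotlib.

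The members and gene lists were chosen with earlier results of these data known. All members are named, and other Wnt genes when called at any dose rate. The 3 genes most like axin2 and sp5l are given by Pearson's r. Genes named without a call in the other lists were picked after their values were seen. Symbols were matched to the files' IDs through a table of gene names, without regard to case. Replicate pools differed by more than counting noise over all 81 pairs, and p-values measure the spread between these pools. Alternatives were the 31 libraries of the study, DESeq2, RLE size factors, filters on low counts, counts on either strand, a joint fit, thinning, a replicate block and each library left out.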

Additional observations from a re-analysis of the deposited data

Results flagged for a closer look

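Of 63 groups of 4 to 6 libraries looked at over the 9 tested members, 3 held a library that stood apart from the rest of its group by Dixon's criterion, where chance gives about 1 in 20 groups, or 3.2 of them. Control replicate 2 of batch I32 had the lowest axin2 level, 37.89 CPM beside 46.93 CPM for the next control, and the highest tcf7l1a level, 369.7 CPM beside 323.5 CPM for the next. Without this library, the difference between the effects at 5 and 0.5 mGy/h was called in no member. The difference was then 0.48 for fzd2 and 0.33 for FZD7, beside 0.51 and 0.35 with all libraries. Their adjusted p were 0.0539 and 0.0597 (edgeR's quasi-likelihood test). The library did not stand apart by Dixon's criterion for fzd2 or FZD7. Exposed replicate 1 at 0.05 mGy/h had the lowest fzd2 level, 20.21 CPM beside 22.83 CPM for the next.

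The exposure effect on fzd2 differed over the 4 dose rates (edgeR's quasi-likelihood F test, adjusted p = 0.0449), beside 2.21% of genes. That call was made in 17 of 39 fits without 1 library. The effect on fzd2 at 5 mGy/h exceeded that at 0.5 mGy/h by 0.51 on the log2 scale, and that on FZD7 (ENSDARG00000027589) did so by 0.35. In either direction, 13.2% of genes differed in this way. For fzd2, 6 of 6 exposed libraries of I30 were above all controls of I30, where 3.33% of genes did not overlap in either direction.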

How the results depend on the processing

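The count of members called at 5 mGy/h was 3 or 4 under all 9 alternatives and 2 to 4 with 1 library left out, and fzd2 and FZD7 were called each time. The share of all genes called there ran from 4.17% to 25.4% over the alternatives, and from 1.95% to 15.9% with 1 library left out. The count of members that were DEG at 5 mGy/h was 1, with 2 over the 31 libraries of the study and a range of 0 to 1 with 1 library left out. Over all genes, DEG numbered 12 to 250 with 1 library left out. At 0.005 mGy/h the count of members called was 0, but 1 with DESeq2 and 1 without a filter on low counts (lrp6, log2 fold changes 0.74 and 0.73), and 0 with any library left out. DESeq2 called 0.588% of all genes there, and the fit without a filter 0.225%. Effects differed over the dose rates in 1 member, in 2 over the 31 libraries, in 0 with RLE size factors, in 2 among genes of at least 1 CPM, and in 0 to 2 with 1 library left out. The difference between 5 and 0.5 mGy/h was called in 2 members, and in 0 to 3 with 1 library left out. Control levels differed in 8 to 9 members. In the other counts, leaving out a library gave 0.

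The study's 31 libraries, which lack I13 control replicates 3 and 4, turned the sign of 6 uncalled changes at 0.05 mGy/h, to 0.066 for FZD7, -0.025 for axin2, 0.17 for ctnnb1, 0.13 for fzd2, 0.18 for sp5l and 0.19 for tcf7l1a. Over all alternatives at 0.05 mGy/h, the largest log2 fold change of lrp6 was 0.53, beside 0.01 in the main fit, and it was not called. With 1 library left out, changes that turned ranged at 0.05 mGy/h from -0.10 to 0.041 for FZD7, -0.13 to 0.041 for apc, -0.0049 to 0.17 for axin2, -0.13 to 0.12 for ctnnb1, -0.11 to 0.12 for dkk1b, -0.19 to 0.016 for fzd2, -0.16 to 0.24 for lrp6, -0.18 to 0.078 for sp5l and -0.19 to 0.12 for tcf7l1a. At 0.005 mGy/h they ranged from -0.084 to 0.0070 for FZD7 and -0.28 to 0.17 for axin2, and at 0.5 mGy/h from -7.2e-05 to 0.089 for FZD7 and -0.055 to 0.012 for sp5l. The cause was not tested.

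The labels do not say whether replicate numbers pair exposed with control pools, and the data did not settle it. Correlations of their deviations ran from -0.352 to 0.352, with means of 0.0334 to 0.0928 over the 4 dose rates. From the lowest dose rate up, the pool of the same number was the best match in 2 of 3, 2 of 4, 3 of 6 and 1 of 6 pairs. The main fits did not use the replicate number. With the number as a block, 0 members were DEG at 5 mGy/h and 3 were called, with lrp6 lost (adjusted p = 0.0581), 1 member was called at 0.005 mGy/h (lrp6, 0.69, adjusted p = 0.0149), and axin2 there turned to 0.050. The blocked fits called 4.17% of all genes at 5 mGy/h, with 7 DEG, and 3.32% at 0.005 mGy/h.

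Over all genes, 1366 were called at 5 mGy/h, against 3690 over the 31 libraries, 2237 with DESeq2 and 626 with the block, and 1120 at 0.5 mGy/h, against 1752, 1851 and 1995 and 385 in the joint fit. At 0.005 mGy/h 0 genes were called, against 136 with DESeq2, 52 without a filter, 35 in the joint fit and 459 with the block. Of the genes called at 5 mGy/h 50.2% were higher, and 67.8% in the joint fit. DEG numbered 80 at 5 mGy/h and 62 at 0.5 mGy/h, against 1158 and 356 over the 31 libraries. Of the tested members, dkk1b had the fewest counts, at 4.40 to 10.5 CPM.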
